A study of Mus musculus with 106 samples.

Results

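The ileum at 22 °C was compared with the 7 other tissues of the same experiment, to find which genes set it apart from them. The comparison used 3 ileum libraries and 20 libraries of interscapular brown fat (BAT), inguinal subcutaneous fat (SAT), perigonadal visceral fat (VAT), liver, spleen and hypothalamus, with 3 of each, and brain, with 2 (replicates 1 and 3), of the 106 libraries in the series. All were RNA sequencing libraries from wild-type male C57BL/6J mice (C57BL/6 in the labels of this experiment) with an age label of week 11, kept at 22 °C as untreated controls of a cold experiment, and each library pooled 2 mice. Of 21647 genes in the table, 15867 had an average log2 CPM (CPM, counts scaled to a common library total with TMM factors) above 0 and were tested. A gene is called an ileum identity gene here when its level in ileum was more than 1.5-fold above each of the 7 other tissues and the largest of the 7 p-values, adjusted over all genes tested by the Benjamini-Hochberg method, was under 0.05 (edgeR quasi-likelihood F-tests, two-sided, on 1 fit of all 23 libraries). This gave 1003 identity genes.

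The ileum is the last stretch of the small intestine. Its lining is a single sheet of epithelium made mainly of absorptive enterocytes, whose apical membrane is folded into the brush border, with mucus-secreting goblet cells, antimicrobial Paneth cells, hormone-producing enteroendocrine cells and tuft cells among them, all renewed from stem cells at the base of the crypts. The ileum takes bile acids and vitamin B12 back up from the gut contents, and signals the bile acid load to the liver through the hormone FGF15. Enterocyte genes are classically driven by the caudal factors CDX1 and CDX2, the nuclear receptors HNF4A and HNF4G and the GATA factors.

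Binding motifs of these factors stood in the promoters of some identity genes, and 5 windows are shown because they belong to genes described below, 3 of digestion and absorption and 2 of defence and adhesion. The sequences are from RefSeq on GRCm38.p6, 5′ to 3′ on the strand of the gene, with capitals marking the motif. The HNF4 motif searched was CAAAGTNCA, read on both strands in the 250 bases before the start of transcription.
Fabp2, chr3:122894915-122894963, plus strand: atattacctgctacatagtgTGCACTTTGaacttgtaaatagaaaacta
Alpi, chr1:87101607-87101645, minus strand: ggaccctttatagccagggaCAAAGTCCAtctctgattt
Slc3a1, chr17:85028288-85028336, plus strand: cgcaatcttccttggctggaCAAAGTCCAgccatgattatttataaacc
The CDX2 motif searched was TTTATGG.
Itln1, chr1:171535298-171535344, minus strand: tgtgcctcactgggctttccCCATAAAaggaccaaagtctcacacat
Epcam, chr17:87635930-87635976, plus strand: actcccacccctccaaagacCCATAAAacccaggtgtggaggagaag
The motif began 137 bases before the start in Fabp2, 19 in Alpi, 39 in Slc3a1, 30 in Itln1 and 29 in Epcam. Among all 32851 promoters of the table, 1.19% held the HNF4 motif, 2.43% the CDX2 motif and 9.99% the GATA motif AGATAA. Muc2 held 2 copies of the GATA motif, 169 and 159 bases before its start. None of the 3 motifs contains another, and each match is a description of the sequence only. A promoter was at hand for 734 of the 1003 identity genes, and no share was counted for the set. The windows therefore do not show whether the motifs were more frequent in it.

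The ileum libraries held 16695457, 19905592 and 25964912 counts, within the 4262403 to 25964912 counts of the 23 libraries (median 15803523). Over log2 CPM of the tested genes, the 3 ileum libraries correlated with each other at r of at least 0.9858 and with no other library above 0.7529, and no 2 libraries were identical. Several libraries stood apart. The brain library of replicate 2, left out here, held 39710 CPM of albumin (Alb) against 1.42 and 2.62 in the other brain libraries. With it in the fit there were 898 identity genes in place of 1003. In spleen replicate 3 the median level over the strict identity genes defined below was 1.5% of the ileum mean, against 0.721% and 0.769% in the other spleen libraries, and SAT replicate 2 carried 0.927% against 0.429% and 0.585%. The 3 VAT libraries were at 1.35% to 2.43% by the same measure. Spleen replicate 2 and, less, replicate 3 held pancreas acinar genes (11 of 12 listed tested, summed level 2000 and 201 CPM against 15.6 in replicate 1), and the VAT libraries held epididymis genes (7 of 8 tested, sums of 503 to 2331 CPM, at most 2.13 elsewhere). Where spleen replicate 3 made spleen the nearest tissue, printed differences that moved by more than 1.5-fold without it are also given without it. These genes were then farther from the nearest tissue.

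Identity genes were 6.32% of the genes tested and took 29.8%, 30.4% and 29.8% of all counts in the 3 ileum libraries, against 1.65% to 3.41% in the 20 others. Their median difference to the nearest tissue was 1.99 on the log2 scale (range 0.587 to 9.46). A strict tier of 498 genes (3.14% of those tested) was at least 4-fold above every other tissue and alone took 21.1% to 21.7% of the counts. In 317 identity genes the ileum was at least 10-fold above the nearest tissue and in 127 at least 100-fold. Every ileum library stood above every other library in 999 of the 1003, against 9.35% of all genes tested. The same libraries chose these genes. The share of counts, this separation and the levels that follow therefore describe the set and do not test it. The identity genes also had high levels, with a median ileum level of 110 CPM against 18.6 CPM over all tested genes, 534 of them at 100 CPM or more and 55 under 10 CPM. In bulk tissue a difference in cell content and a difference in RNA per cell cannot be told apart. The labels do not say how the mice of the replicates were separated beyond the pools of 2, so the p-values measure the spread between these libraries.

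**Figure D1:**
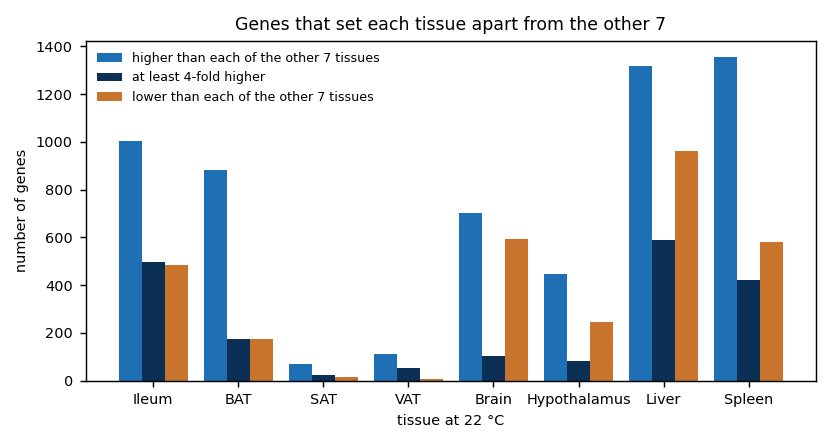
Number of genes (vertical axis) above each of the other 7 tissues, at least 4-fold above each, and below each, when the same test is applied to every tissue at 22 °C (horizontal axis). Ileum had 1003, 498 and 484 genes, fewer identity genes than liver and spleen and more of the 4-fold tier than all tissues but liver.

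With the same rule applied to the other tissues, spleen had 1356 identity genes and liver 1319, BAT 883, brain 703, hypothalamus 447, VAT 110 and SAT 70. The strict tier put ileum (498) between liver (587) and spleen (422). Under this rule each fat depot was also set against the other 2, and brain and hypothalamus against each other. Ileum also shared genes with single tissues, counted by the same limits and without leaving out identity genes, so the counts can overlap with those above. In this count 638 genes were higher in both ileum and spleen than in each of the other 6 tissues, and 461 in both ileum and liver. With BAT there were 32, with VAT 32, with brain 30, with hypothalamus 22 and with SAT 1. Of the 461 shared with liver, 113 were higher in ileum and 173 higher in liver. Of the 638 shared with spleen, 132 were higher in ileum and 221 in spleen. Against the equal-weight mean of the other 7 tissues, a looser comparison, 4424 genes (27.9%) were higher in ileum and 4583 (28.9%) lower.

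The genes of bile acid recovery were among the clearest. Of 9 listed, 8 were tested and 5 were identity genes, all in the strict tier, with a list median of 5.42 on the log2 scale to the nearest tissue, where the median of all tested genes was -1.48 and 6.32% were identity genes. Both figures are the background for the lists below, too. All lists were chosen with earlier results of these data known, so their counts and order are descriptions. Slc10a2 (chromosome 8, 5083219 to 5105351, GRCm38), the apical sodium-bile acid cotransporter that takes bile acids into the enterocyte, stood at 991, 977 and 988 CPM in ileum. Liver, the nearest tissue, held 26.3, 41.5 and 30.2 CPM, a log2 difference of 4.91 ± 0.77 (SE, n = 3 and 3, adjusted p = 8.43e-05 in edgeR). Ileum and liver did not overlap, and the ileum libraries varied by 7.21 CPM (SD). Fabp6 (chromosome 11, 43596049 to 43601540), which binds bile acids inside the cell, stood at 2575, 3397 and 3301 CPM. Spleen held 0.687, 0.649 and 29.9 CPM, the last in replicate 3, and the difference was 8.21 ± 1.41 (SE, edgeR adjusted p = 0.00088) with that library and 9.82 to SAT, then the nearest, without it. Per kilobase of exon, Fabp6 was 6453 CPM and Slc10a2 237 CPM. The basolateral exporter is a dimer of Slc51a and Slc51b, and both parts were identity genes. Slc51a measured 532 ± 66.1 CPM and Slc51b 225 ± 13.2 CPM (SD, n = 3), with log2 differences of 8.19 ± 0.46 and 6.85 ± 0.52 (SE). That of Slc51a was 8.80 without spleen replicate 3.

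Fgf15, the hormone that reports bile acids to the liver, was low and uneven, at 20.3, 3.83 and 33.3 CPM in ileum. The lowest of these was still above the 0.214, 0.258 and 0.426 CPM of hypothalamus, the nearest tissue, and the difference was 5.93 ± 0.78 (SE, edgeR adjusted p = 6.32e-05). The bile acid receptor FXR (Nr1h4) was no identity gene: ileum held 256, 250 and 239 CPM and liver 271, 241 and 232 CPM, with a difference of 0.00 ± 0.25 (SE) on the log2 scale. Comparisons with liver depend on the scaling: TMM factors were 0.557 to 0.573 in liver and 1.03 to 1.04 in ileum, and with library size alone Nr1h4, Mttp and Lgr5 were identity genes. Its classical target in liver, the repressor SHP (Nr0b2), averaged 0.272 CPM in ileum against 67.7 CPM in liver. Abcc2, an apical exporter of conjugates, averaged 95.2 CPM against 1583 CPM in liver (log2 difference -4.06 ± 0.29, SE). So the uptake, binding and export genes stood apart in ileum, while the receptor was level with liver and Nr0b2 and Abcc2 were lower than in it.

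**Figure D2:**
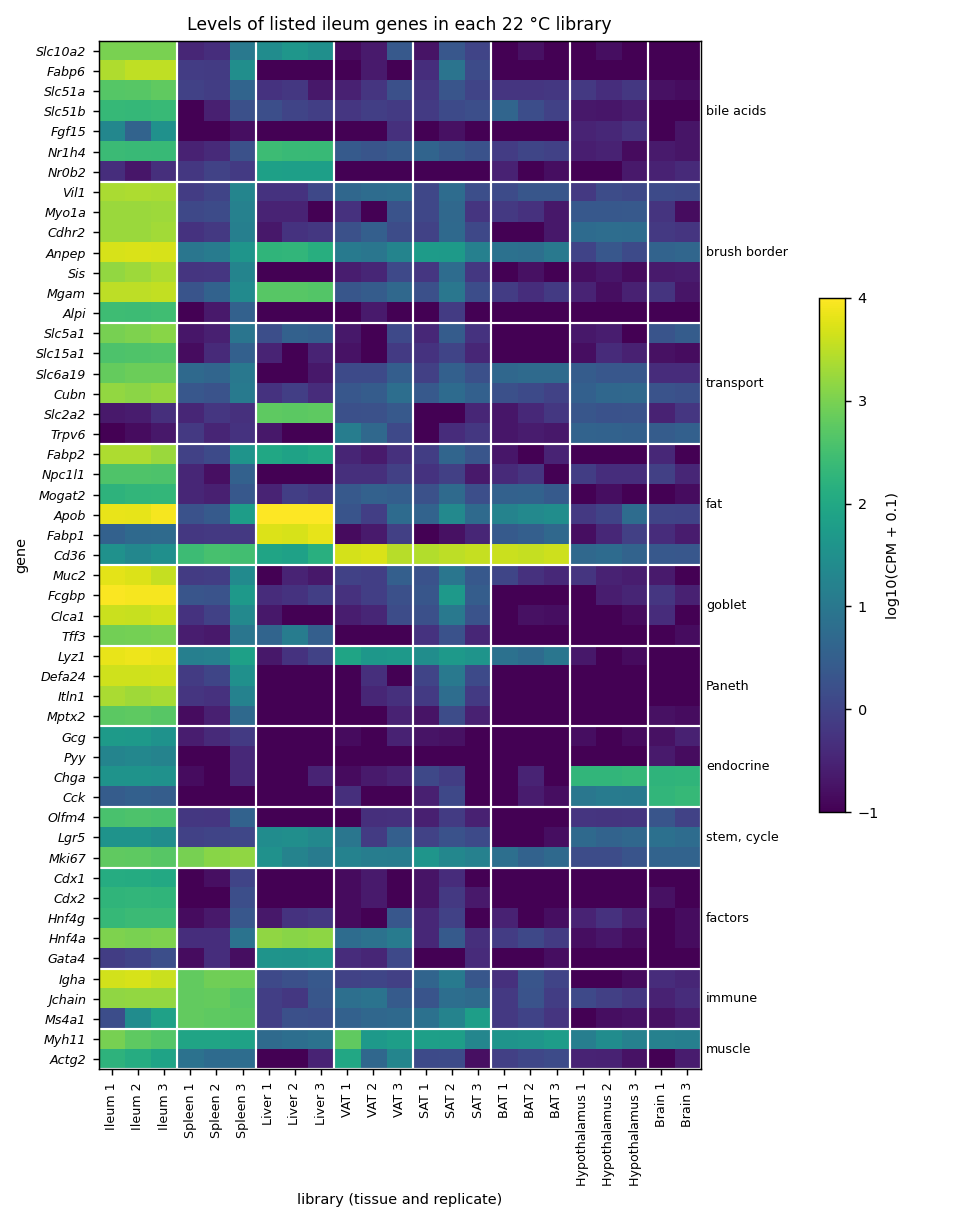
Levels of listed genes, as log10(CPM + 0.1) on the color scale, with genes in lines grouped by role and 1 column for each of the 23 libraries at 22 °C. The 3 ileum columns are bright for bile acid, brush border, goblet and Paneth genes, and the faint column of spleen replicate 3 shows its traces of the same genes (Fabp6 29.9 CPM, Muc2 24.7 CPM).

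Brush border genes formed the broadest group. Of 14 structural genes 13 were identity genes (11 in the strict tier, list median 4.30), and of 15 digestive enzymes tested 13 were (12 strict, median 4.87). Villin (Vil1), the actin bundler of microvilli, stood at 2317, 2404 and 2368 CPM in ileum against 0.687, 0.944 and 18.9 CPM in spleen, a difference of 8.43 ± 0.92 (SE, edgeR adjusted p = 1.52e-06), and of 8.79 to VAT without spleen replicate 3. The motor Myo1a (1795 CPM, 8.21 ± 0.88 SE) and the intermicrovillar cadherin Cdhr2 (1873 CPM, 8.33 ± 0.90 SE) were identity genes too, and Myo1a differed by 9.58 without spleen replicate 3. The exception was Anks4b, a scaffold of the same adhesion complex, at 248 CPM against 123 CPM in liver (1.01 ± 0.37, edgeR adjusted p = 0.069), and 10 of the 35 alternative settings of the fit called it. Among the enzymes, aminopeptidase N (Anpep) was the highest per kilobase of exon (1228 CPM), at 5061, 5305 and 4870 CPM against 188, 196 and 138 CPM in liver (4.87 ± 0.54 SE). All 3 ileum libraries lay far above all liver libraries. Sucrase-isomaltase (Sis) measured 1526, 1855 and 2403 CPM, and maltase-glucoamylase (Mgam) 3178, 3245 and 3553 CPM. Mgam was nearer to another tissue, with 486 CPM in liver (2.77 ± 0.67, edgeR adjusted p = 0.00461), and was not called with brain replicate 2 in the fit. Alpi, the intestinal alkaline phosphatase whose promoter window is shown above, averaged 282 CPM (7.92 ± 0.81 SE, and 10.2 without spleen replicate 3). Lactase (Lct), an enzyme of the upper small intestine, averaged 0.791 CPM in ileum and 7.08 CPM in brain, and Ace was level with SAT (-0.07 ± 0.34).

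Transporters were mixed. Of 24 tested (25 listed), 14 were identity genes and 12 strict, with a median of 1.70. The sodium-glucose cotransporter Slc5a1 stood at 928, 1076 and 1264 CPM in ileum against 0.0981, 0.177 and 8.82 CPM in spleen (8.50 ± 0.96 SE, edgeR adjusted p = 1.72e-05). The peptide transporter Slc15a1 averaged 419 CPM (8.45 ± 0.61 SE, 9.54 without spleen replicate 3) and the neutral amino acid transporter Slc6a19 721 CPM (6.81 ± 0.34 SE). Cubn and Amn, the 2 parts of the receptor that takes up vitamin B12 bound to intrinsic factor, averaged 1480 and 70.8 CPM (8.24 ± 0.57 and 3.88 ± 0.41 SE). Slc3a1, the heavy subunit of the cystine transporter, averaged 328 CPM, 2.06 ± 0.34 above liver, and was not called with brain replicate 2 in the fit. In contrast, the glucose exporter Slc2a2 averaged 0.21 CPM in ileum against 570 CPM in liver, the calcium channel Trpv6 0.0531 CPM, the fructose transporter Slc2a5 15.5 CPM (-0.77 ± 0.67 to BAT) and the folate transporter Slc46a1 8.48 CPM (-3.17 ± 0.24 to liver).

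Genes of fat absorption were shared with liver. Of 21 tested, 6 were identity genes, 3 of them strict, with a list median of -0.546. Fabp2, the intestinal fatty acid binding protein, stood at 2474, 2395 and 1749 CPM against 94.7, 76.8 and 101 CPM in liver (4.60 ± 0.92 SE, edgeR adjusted p = 0.00114), and with brain replicate 2 in the fit it was not called. The cholesterol importer Npc1l1 (417 CPM, 8.38 ± 0.64 SE, 9.75 without spleen replicate 3) and the acyltransferase Mogat2 (193 CPM, 5.94 ± 0.48 SE) were the other strict genes. Apob, the scaffold protein of chylomicrons and liver lipoproteins, averaged 7334 CPM in ileum and 43174 CPM in liver (-2.56 ± 0.99). Its loading factor Mttp averaged 759 CPM in ileum and 838 CPM in liver (-0.14 ± 0.24). Genes of fatty acid uptake that are typical of the upper intestine were low in ileum: Fabp1 averaged 4.63 CPM against 5642 CPM in liver, and Cd36 28.2 CPM against 4338 CPM in VAT. The high-density lipoprotein receptor Scarb1 was lower in ileum (6.19 CPM) than in all 7 other tissues.

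The fatty acid binding protein family divided the tissues among its members. Of 10 listed, 7 were tested. Fabp6 and Fabp2 were ileum identity genes, and they carried 3091 ± 450 and 2206 ± 398 CPM (SD, n = 3). Liver held Fabp1 and fat held Fabp4, which averaged 12228 CPM in BAT and 37.3 CPM in ileum. Fabp5, the epidermal member, was lowest in ileum of all tissues, with 2.85, 2.23 and 3.47 CPM against 9.17, 10.4 and 9.33 CPM in spleen, the tissue next above it (-1.74 ± 0.40 SE, edgeR adjusted p = 0.00336), and was highest in SAT, at 45.4 CPM. Fabp3 and Fabp7, the heart and brain members, averaged 0.201 and 0.438 CPM in ileum.

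**Figure D3:**
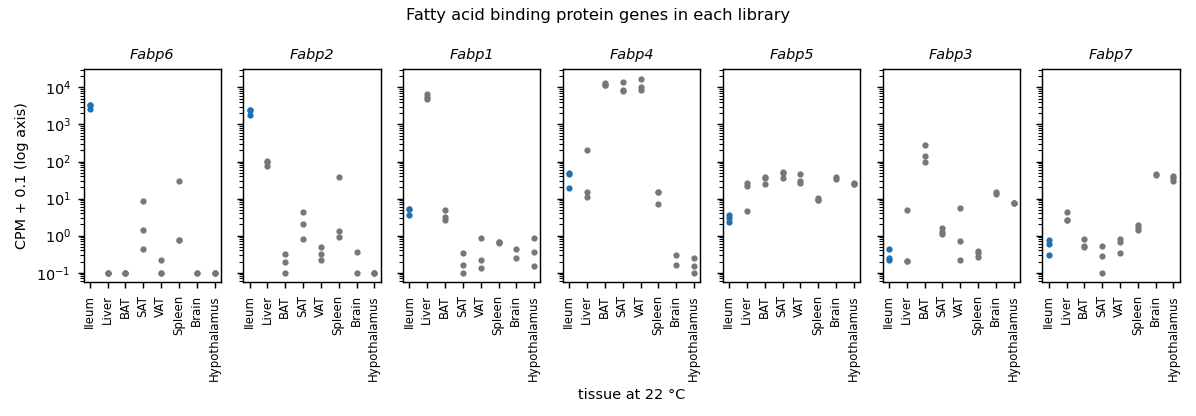
CPM + 0.1 of the 7 tested fatty acid binding protein genes (log axis), 1 point per library, by tissue at 22 °C, with ileum in blue. Fabp6 and Fabp2 are highest in ileum (3091 and 2206 CPM), and ileum lies below every other tissue for Fabp5 (2.85 CPM).

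Of all lists, Paneth cell genes had the highest median. All 12 Paneth cell genes were in the strict tier, with a median of 8.53 on the log2 scale. DESeq2 called 10 of the 12, without Defa26 and Defa3. Several of the 12 are alpha-defensins of 1 cluster and do not count as separate observations. Lysozyme 1 (Lyz1) stood at 6819, 7502 and 6706 CPM in ileum against 82.5, 44.4 and 47.4 CPM in VAT (6.91 ± 0.59 SE, edgeR adjusted p = 3.78e-08). The alpha-defensin Defa24, per kilobase the highest of all identity genes (10661 CPM), averaged 4467 ± 139 CPM (SD) and the lectin Itln1, with the CDX2 motif in its promoter, 2173 CPM (8.57 ± 1.28 SE, 9.78 without spleen replicate 3). Spleen was the nearest tissue of Defa24 through replicate 3 alone, at 0.638, 1 and 32.8 CPM. The alpha-defensin genes are near-identical copies on chromosome 8, so how reads were shared among them is uncertain. The protease Mmp7, which activates them, was closer to VAT (239 CPM in ileum and 24 CPM in VAT).

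Of 11 goblet cell genes tested (12 listed), 10 were identity genes and 9 strict, with a median of 7.12. The gel-forming mucin Muc2 (chromosome 7, 141690340 to 141754693) stood at 6358, 5485 and 3598 CPM against 0.638, 0.708 and 24.7 CPM in spleen (9.22 ± 1.14 SE), and the difference was 10.2 to SAT without spleen replicate 3. The ileum libraries were uneven for Muc2, replicate 3 being the lowest, but none overlapped with a library of another tissue. Fcgbp, which crosslinks mucus, was at 8778 ± 466 CPM (SD) in ileum, with 2.09, 49.6 and 2.94 CPM in SAT, where the high value is replicate 2. Its difference was 8.90 ± 1.41 (SE), and 11.7 without SAT replicate 2 and spleen replicate 3. Clca1 averaged 4020 CPM (8.97 ± 1.14 SE, 9.75 without spleen replicate 3) and the trefoil peptide Tff3 917 CPM (7.12 ± 0.99 SE). Bcas1, which oligodendrocytes also express, was the exception, 2.28 below brain on the log2 scale.

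The enteroendocrine and tuft cell lists held fewer identity genes than the Paneth and goblet lists. Of 13 enteroendocrine genes tested (18 listed), 5 were identity genes, and the list median was -2.29. The hormone genes of the distal gut were among the 5. Gcg, which encodes glucagon-like peptides, stood at 52.6, 49.1 and 35.6 CPM against at most 0.618 CPM in spleen (7.01 ± 0.41 SE, edgeR adjusted p = 1.3e-08, and more without spleen replicate 3), and Pyy at 17.9, 20.1 and 17.5 CPM (7.55 ± 0.70 SE). Secretin (Sct) averaged 28.2 CPM and neurotensin (Nts) 59.4 CPM, the latter against 22 CPM in hypothalamus (1.43 ± 0.24). The granule protein Chga averaged 36.4 CPM in ileum and 201 CPM in hypothalamus, and cholecystokinin (Cck) 2.99 CPM in ileum and 210 CPM in brain. Of 9 tuft cell genes tested (12 listed), Trpm5 (18.5 CPM, 3.26 ± 0.35 SE), Sh2d6 and Avil were identity genes, whereas Dclk1 averaged 31.6 CPM against 748 CPM in brain.

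Crypt genes were mixed too. Of 11 stem cell genes tested (12 listed), 4 were identity genes. Olfm4 stood at 375, 396 and 364 CPM against at most 3.60 CPM in spleen (7.94 ± 0.53 SE). Lgr5, the defining receptor of crypt stem cells, was at 37.2, 36.5 and 28.4 CPM in ileum and at 27.2, 29.1 and 21.5 CPM in liver, and the ranges overlapped (0.39 ± 0.39, edgeR adjusted p = 0.691). None of the 12 proliferation genes was an identity gene, although all 12 were above the mean of the other tissues. Spleen was the higher tissue: Mki67 stood at 606, 575 and 500 CPM in ileum and at 946, 1284 and 1476 CPM in spleen, a difference of -1.14 ± 0.31 (SE, adjusted p = 0.00323 in the edgeR test against spleen). With spleen left out of the fit all 12 were identity genes.

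**Figure D4:**
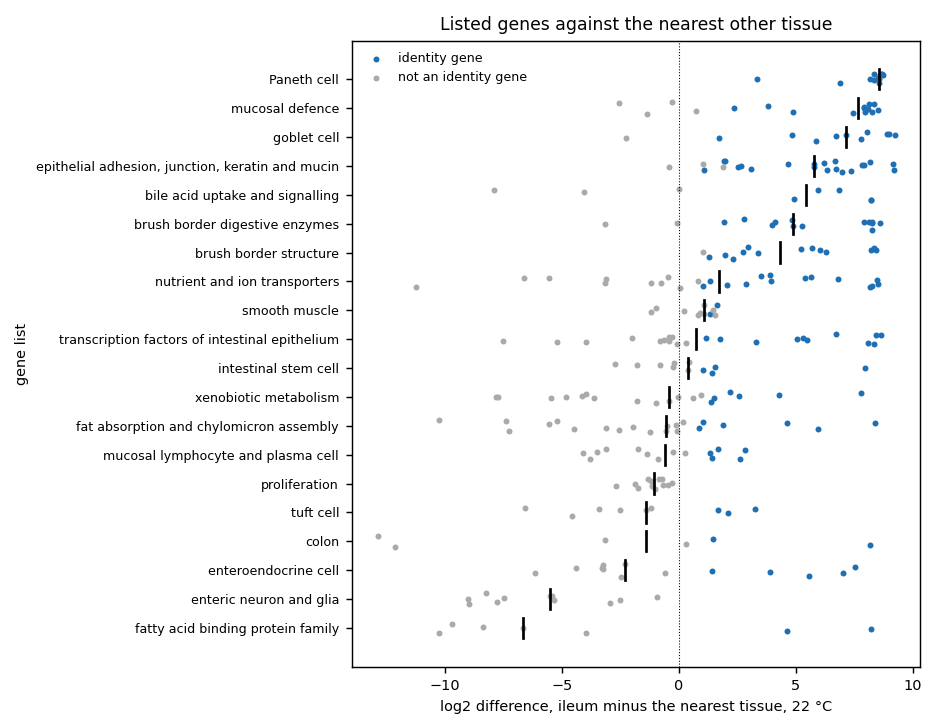
Log2 difference between ileum and the nearest other tissue at 22 °C (horizontal axis), 1 point per listed gene, blue for identity genes and gray for the others, with lists on the vertical axis ordered by their median (black bar). Paneth (8.53), defence (7.67) and goblet (7.12) genes are farthest from every other tissue, and enteric neuron genes (-5.52) lie below one.

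Of 22 transcription factors of the intestinal epithelium tested (23 listed), 11 were identity genes and 9 strict, with a median of 0.734. Cdx2 stood at 189, 195 and 184 CPM in ileum, and at 0, 0 and 1.46 CPM in spleen, the nearest tissue by replicate 3 (8.62 ± 0.65 SE, edgeR adjusted p = 8.58e-07). Without that library SAT was nearest, at a difference of 9.38. Cdx1 averaged 116 CPM (8.43 ± 0.63 SE, 9.63 without spleen replicate 3) and the vitamin D receptor Vdr 292 CPM (6.73 ± 0.41 SE). The 2 HNF4 genes parted. Hnf4g was at 226, 255 and 252 CPM in ileum and at most 2.13 CPM in spleen (8.33 ± 0.69 SE, 9.34 without spleen replicate 3), while Hnf4a was at 1093, 994 and 1064 CPM in ileum and 1449, 1303 and 1429 CPM in liver, a difference of -0.41 ± 0.59 (SE) that the test did not call. Of the GATA factors, Gata5 (80.1 CPM, 5.31 ± 0.37 SE) and Gata6 (53.5 CPM, 1.17 ± 0.23 SE, nearest VAT) were identity genes, Gata6 not with brain replicate 2 in the fit, and Gata4, a factor of the upper small intestine, averaged 1.03 CPM against 39.2 CPM in liver. Onecut2 averaged 1.85 CPM against 341 CPM in liver.

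Epithelial adhesion, junction, keratin and mucin genes were identity genes in 20 of 23 cases (17 strict, median 5.79). Epcam, with the CDX2 motif in its promoter, averaged 2397 CPM (6.98 ± 0.86 SE, up to 7.63 with single libraries left out), the cadherin Cdh17 1854 CPM (6.70 ± 0.61 SE) and Krt20 1408 CPM (7.83 ± 0.90 SE, 9.43 without spleen replicate 3). The 3 that were not called, Cdh1 (1.90 ± 0.67), Cldn3 (1.02 ± 0.51) and Krt18 (-0.44 ± 0.56), had liver as the nearest tissue, and Cdh1 was called under 14 of the 35 alternative settings. Of 16 genes of mucosal defence tested (17 listed), 12 were identity genes, all strict, with a median of 7.67. The bactericidal lectin Reg3b stood at 6436, 9390 and 9178 CPM against 1.42, 3.60 and 99.7 CPM in spleen (7.90 ± 1.51 SE, edgeR adjusted p = 0.00162, and 9.62 to SAT without spleen replicate 3), and its neighbor Reg3g averaged 4371 CPM. Replicate 1 was the lowest ileum library for both, and even it lay far above all other tissues. Lypd8, which keeps bacteria from the epithelium, averaged 2045 CPM (8.13 ± 1.31 SE). The antibody transporter Pigr averaged 4240 CPM in ileum and 2589 CPM in liver (0.71 ± 0.66, edgeR adjusted p = 0.649). Of 19 xenobiotic genes tested (20 listed), 6 were identity genes, among them the drug exporter Abcb1a (663 CPM, 4.26 ± 0.29 above brain), while Cyp3a11 averaged 32.5 CPM against 7375 CPM in liver. Of the 6, Gsta1 lost its call under 23 of the 35 alternative settings and Ces2e under 8.

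Cells of the wall other than epithelium also entered the set. Of 14 mucosal lymphocyte and plasma cell genes tested (15 listed), 5 were identity genes. The heavy chain of immunoglobulin A (Igha) stood at 4606, 4963 and 4011 CPM in ileum against 635, 821 and 786 CPM in spleen (2.60 ± 0.39 SE, edgeR adjusted p = 4.2e-05). The joining chain Jchain averaged 1508 CPM against 593 CPM (1.35 ± 0.34 SE), and was not called with brain replicate 2 in the fit. The other 3 were Gzma, Gzmb and Itgae, genes of intraepithelial lymphocytes. The B cell gene Ms4a1 was at 1.40, 26.8 and 73.6 CPM in ileum, below the 583 CPM of spleen. The ileum libraries differed widely for Ms4a1, with replicate 1 lowest and replicate 3 highest, and none overlapped with spleen. The summed level of the list was 6304, 6910 and 5963 CPM in ileum and 2489 to 2775 CPM in spleen. Most of the ileum sum came from Igha and Jchain, so it does not describe the other listed genes. The part of this list in the other results was not tested.

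Of 11 smooth muscle genes, 2 were identity genes, Myl9 and Acta2, and 9 of the 35 alternative settings did not call Acta2. Myh11, the smooth muscle myosin, was at 953, 587 and 464 CPM in ileum and at 610, 49.2 and 63.2 CPM in VAT (1.46 ± 0.64 SE, edgeR adjusted p = 0.141), so VAT replicate 1 overlapped with ileum. The summed level of the list was 1905 to 3352 CPM in ileum, 2438 CPM in VAT replicate 1 and 575 and 732 CPM in the other VAT libraries, and without VAT replicate 1 the list had 8 identity genes. None of 11 enteric neuron and glia genes tested (12 listed), nor of the 2 of interstitial cells of Cajal, was one, and brain or hypothalamus was nearest for all 11.

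Most markers of tissues that could have been cut with the ileum were low in it, with Cps1 and Clca4b as high exceptions. Of 11 pancreas acinar genes tested (12 listed), Cpa1, Cela2a and Pnlip were at 0 in all ileum libraries and the summed level was 6.21 to 7.15 CPM. The adipocyte list (8 tested) summed to 92.6 to 160 CPM in ileum against 22960 to 28190 CPM in VAT, and the 1 stomach gene tested of 8 listed to 0.291 to 0.517 CPM. The hepatocyte list (8 tested) summed to 890 to 1224 CPM, nearly all from Cps1 (1051 CPM), a urea cycle enzyme that enterocytes also make, with Alb at 0.349, 0 and 0.0369 CPM. The neuron list (8 tested) summed to at most 18 CPM and the skeletal muscle list (8 tested) to at most 33.2 CPM. Of 6 colon genes tested (8 listed), Clca4b and B3gnt6 were identity genes, and Aqp8 and Car1 averaged 0.0324 and 0.0123 CPM. Clca4b was high, at 1906 CPM, and the colon list summed to 1929, 1983 and 2036 CPM in ileum. Of the bile acid genes above, Slc10a2, Fabp6 and Slc51a were high in ileum. Fgf15 was low and uneven, and Nr1h4 was level with liver.

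The nearest other tissue of an identity gene was spleen in 325 cases, liver in 214, VAT in 174, hypothalamus in 81, brain in 74, BAT in 73 and SAT in 62. Without spleen replicate 3 the spleen count was 229. The VAT libraries held epididymis genes, as given above, and what such tissue added to the VAT count was not tested. Over all tested genes the order was partly another, with the ileum mean correlating with spleen at r = 0.726, SAT 0.676, VAT 0.669, BAT 0.628, liver 0.610, hypothalamus 0.415 and brain 0.412. These are correlations across genes, which are not independent, and are given as a description.

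Some identity genes lay side by side on the chromosomes. Of 1002 with a position, 22% had another identity gene as a direct neighbor among tested genes, against 11.3% of the 14854 other genes. The longest run, picked out after the values were seen, held 13 genes on chromosome 8 from 21025545 to 21735471 (GRCm38), the alpha-defensin cluster with Defa21, Defa30, Defa22, Defa3, Defa26, Defa17 and Defa24. The next was 5 chloride channel accessory genes on chromosome 3 from 144796559 to 145032776, including Clca1, Clca3b and Clca4b. Both runs are families of similar sequence. Protein-coding genes were 97.7% of identity genes and 98.8% of all genes tested.

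Genes lowest in ileum numbered 484, or 3.05% of those tested. Paqr9 averaged 1.42 CPM in ileum and 1445 CPM in liver, and was 5.03 ± 0.32 (SE) below VAT, the tissue next above it (edgeR adjusted p = 4e-10). Transferrin (Trf), the iron carrier of plasma, stood at 40.5, 24.4 and 36.7 CPM, against 37850 CPM in liver, and was 3.42 ± 0.23 (SE) below BAT. The retinoid receptor Rxrg was 3.17 below spleen on the log2 scale. The acyltransferase Mogat1, a relative of the identity gene Mogat2, was in this group, at 3.14 below the tissue next above it and at 2.45 to 5.96 below with single libraries left out. Gldn was listed at 0 in all 3 ileum libraries and averaged 11.6 CPM in BAT. Alb, at most 0.349 CPM in ileum, was also in this group. The calls of Gldn and Alb were lost with some single libraries left out.

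The same comparison was repeated in libraries that had no part in choosing these genes. In the 10 °C libraries of the 8 tissues, from mice housed for 2 weeks at 10 °C after 5 days each at 18 °C and 14 °C, 1032 of 15918 genes (6.48%) were ileum identity genes. Of the 1003 identity genes of 22 °C, 996 were tested there and 835 (83.8%) were called, and of 495 in the strict tier 459 (92.7%) were. In the second experiment, on wild-type C57BL/6J mice with an age label of 12 weeks at 22 °C from another supplier, sequenced with a strand-specific kit at another site, ileum could be compared with BAT, brain, liver and quadriceps. For the 6 quadriceps libraries the labels do not say which were controls of the cold experiment, whose supplier and kit differed. There 2005 of 14911 genes (13.4%) were above all 4 tissues, and of 936 identity genes tested 873 (93.3%) were called, with 457 of 465 (98.3%) in the strict tier. The comparison there is with 4 tissues, and spleen is not one of them. Fabp6 averaged 7909 CPM there, Slc10a2 392 CPM, Vil1 3210 CPM, Muc2 4092 CPM, Lyz1 2579 CPM and Cdx2 216 CPM, and all 6 were called. Both tables name some genes differently. The second table's own line named Clca1 held 2.99 CPM in ileum, whereas its line Clca3, an older name of the same gene, held 3005 CPM, so Clca1 was counted as not called only by its name.

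**Figure D5:**
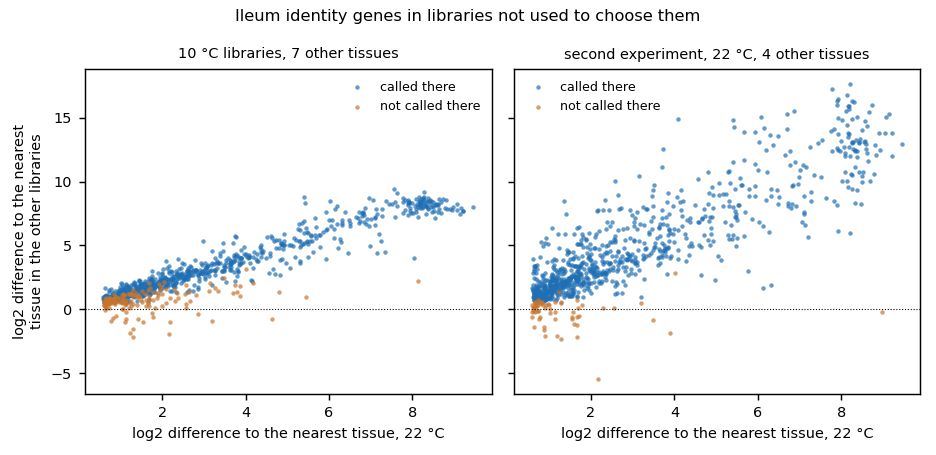
Log2 difference to the nearest tissue at 22 °C (horizontal axis) and in the 10 °C libraries (left) or the second experiment (right), 1 point per identity gene, blue where it was called there and orange where it was not. Most lie well above 0 in both, with 835 of 996 and 873 of 936 called.

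In the second experiment ileum from mice kept 4 weeks at 34 °C was set against ileum at 22 °C (3 libraries each), and edgeR's quasi-likelihood test called 0 of 13023 genes higher (0%) and 0 lower (0%), with 1011 at an unadjusted p under 0.05 and a lowest adjusted p of 0.594. The edgeR exact test called 1 higher and 4 lower, and DESeq2 7 higher and 11 lower. At an unadjusted p under 0.05 and a fold above 1.5, 204 genes (1.57%) were higher and 164 (1.26%) lower. Of 964 identity genes tested 20 (2.07%) were higher and 16 (1.66%) lower by that rule, and of 480 in the strict tier 15 (3.12%) were higher and 9 (1.88%) lower. Their median log2 difference was -0.005 against 0.013 over all genes. The Paneth genes Defa26 (37.0, 43.0 and 29.9 CPM at 22 °C and 47.8, 71.8 and 65.3 CPM at 34 °C, 0.76 ± 0.19 SE) and Mptx2 (115, 163 and 101 against 226, 188 and 283 CPM, 0.89 ± 0.22 SE) were among the 20, each with an edgeR adjusted p of 0.594. No other gene of the Paneth list was among the 20 or the 16. Defa34, Gm15292 and AY761184, which lie in the alpha-defensin cluster but are not on that list, were among the 20. Slc51b was among the 16, with 604, 449 and 466 CPM at 22 °C and 394, 230 and 337 CPM at 34 °C (-0.65 ± 0.22 SE, edgeR adjusted p = 0.594).

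In the first experiment ileum at 10 °C could be set beside the 22 °C libraries that also chose these genes, and edgeR's quasi-likelihood test called 7 of 14081 genes higher and 2 lower, where edgeR's exact test called 148, DESeq2 147 and the fit with a replicate block 79 in all. This total of 9 was 17 without 22 °C replicate 1, 5 without 22 °C replicate 3, 1 without 10 °C replicate 2 and 0 without 22 °C replicate 2 or 10 °C replicate 1 or 3. Fabp2 was one of the 7, at 5635, 5332 and 5648 CPM at 10 °C and 2473, 2439 and 1798 CPM at 22 °C (1.30 ± 0.14 SE, edgeR adjusted p = 0.0488). All libraries at 10 °C lay above all at 22 °C for Fabp2. At 34 °C in the second experiment Fabp2 stood at 2505, 9432 and 7012 CPM against 3748, 4460 and 2566 CPM at 22 °C (0.83 ± 0.47 SE), and there the groups overlapped. Fabp6 at 10 °C was at 3930, 5866 and 5154 CPM (0.66 ± 0.18 SE, edgeR adjusted p = 0.161) and Slc10a2 at 1439, 1189 and 1388 CPM (0.42 ± 0.09 SE, edgeR adjusted p = 0.114). Cdx2 (-0.06 ± 0.08 SE) and Vil1 (0.12 ± 0.10 SE) were among those not called.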

How the data were processed

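The authors aligned reads to mm10, counted them per gene and deposited raw counts, whole numbers without scaling. The labels name STAR 2.5.3a, Picard 1.141 and HTSeq 0.6p1. The 8-tissue libraries were made with a NEBNext Ultra kit, so reads of overlapping antisense genes cannot be told apart. Reads carry no molecular identifiers, and each library pooled 2 mice. Totals ran from 4262403 to 25964912 counts, and low levels are least precise in the smallest libraries.

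From the deposited counts, 8 tissue means were fitted with edgeR 4.0.16 in R 4.3.3 (TMM scaling, average log2 CPM above 0, quasi-likelihood F-tests, two-sided, Benjamini-Hochberg adjustment over all genes tested). Levels are TMM-scaled CPM, given as mean ± SD, and errors of log2 differences are standard errors of the fit. An identity gene exceeded each of 7 tissues 1.5-fold with an adjusted largest p under 0.05, and the strict tier each by 4-fold. Where 1 tissue is compared, the adjusted p is over that comparison. Gene positions and exon lengths are from GENCODE on GRCm38, the assembly of mm10, and 64 of 21647 identifiers had no symbol. Of the identity genes, 975 were found in the second experiment's table, 51 by an older symbol, and 36 of the symbols matched directly are also an older name of another gene. The labels name 34 °C in the treatment of every sample, so temperature was taken from titles and the paper.

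Genes named are the 20 identity genes of highest level, the 15 farthest from the nearest tissue, the 10 lowest genes farthest from the next tissue and members of lists of cell types and functions. Members and lists were chosen with earlier results of these data known. The alternatives were DESeq2 1.42.0, edgeR's exact test, separate fits for each pair of tissues, other scaling and filters, all 3 brain libraries, liver or spleen left out, each library left out and the replicate number as a block. Scripts were tested on simulated counts. One member of the lymphocyte list is not reported here by name.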

Additional observations from a re-analysis of the deposited data

Results flagged for a closer look

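The brain library of replicate 2, which the comparisons did not use, held 39710 CPM of Alb, the main plasma protein made by liver, against 1.42 and 2.62 CPM in brain replicates 1 and 3. The signal stood out because it lies in a library outside the tissue comparison and far above the other libraries of its group. Liver held 84500 to 94060 CPM. The neuronal gene Snap25 was at 900 CPM in that library against 1995 and 1744 CPM in the other brain libraries. In ileum Alb was at most 0.349 CPM. With this library in the fit there were 898 identity genes in place of 1003 and 423 genes lowest in ileum in place of 484.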

How the results depend on the processing

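Of 204 counts computed under the alternatives 188 stayed within 1.5 times the value reported. A further 582 values covered only the genes named as highest, farthest from the nearest tissue or lowest. These genes were picked as extremes of the same data. Of their values 565 kept their direction and call, 17 kept their direction and lost the call, and none reversed. Genes named only as list members were not counted there, and some of them changed call often. Under the 35 alternative settings Gsta1 lost its call in 23 and Acta2 in 9, and Cdh1 gained one in 14. With spleen left out there were 1627 identity genes, 796 in the strict tier and 842 lowest in ileum, against 1003, 498 and 484, since fewer tissues had to be passed. With liver left out the numbers were 1463, 722 and 723, with all 3 brain libraries 898, 489 and 423, with DESeq2 1007, 471 and 470, and with pairwise exact tests 1099, 507 and 440. DESeq2 gave no p for 21 of the 1003 identity genes. Leaving out single libraries gave 947 to 1072, 494 to 517 and 404 to 494, and leaving out spleen replicate 3 and SAT replicate 2 together, chosen after seeing the data, 991, 499 and 465. Library size in place of TMM kept 896 of the 1003 identity genes and 271 of the 484 lowest.

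The labels do not say whether replicate numbers pair the samples across tissues. Of 20 same-numbered pairs of ileum and other libraries, 2 correlated above 0.1 (range -0.0828 to 0.221). The median r was 0.0144 for equal and -0.00307 for unequal numbers. So few libraries per tissue cannot decide whether samples were paired. With the replicate block there were 1006 identity genes, 497 in the strict tier and 483 lowest genes. For 10 °C against 22 °C the replicate block gave 79 genes in place of 9, library size only 4, filterByExpr 4, edgeR's exact test 148 and DESeq2 147, and leaving out single libraries 0 to 17. For 34 °C against 22 °C the exact test gave 5 and DESeq2 18 in place of 0. The cause of these changes was not tested. Among the lists, fat absorption and xenobiotic genes each had 2 identity genes in place of 6 with all 3 brain libraries. With all 3 brain libraries the calls lost included Mgam, Krt8, Fabp2, Slc3a1, Gata6, Jchain, Acta2, Cyp2c55, Cdhr5, Dpp4, Ceacam1, Tjp3, Tm6sf2, Slc6a12, Alb and Aox3. Pairwise fits give no value for ileum against the mean of the other tissues.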

Other observations

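Other identity genes were among the 15 farthest from the nearest tissue. The membrane mucin Muc3 averaged 1201 CPM in ileum and was 9.17 ± 0.86 (SE, n = 3) above spleen on the log2 scale (10.3 above SAT without spleen replicate 3), and the adhesion molecule Ceacam20 averaged 326 CPM at 9.15 ± 0.62 (9.85 without that library). The gasdermin Gsdmc2, the ubiquitin ligase Trim31 and the protease Prss32 were among these 15 too.

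Apob and Cps1, known for liver, were no identity genes but averaged 7334 and 1051 CPM in ileum. The 10 °C libraries gave lower differences to the nearest tissue than the 22 °C libraries for some genes. Cyp2c55, a strict gene at 22 °C (2.58 ± 0.35, not called with brain replicate 2 in the fit), was 0.43 above the nearest tissue at 10 °C, where the test did not call it.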
